A study of Homo sapiens with 8 samples.

Results

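The genes of small RNA processing and the Argonaute family were followed in 5 human cancer cell lines after transfection of a small RNA. The set was made of 10 genes, DROSHA, DGCR8, XPO5, DICER1, TARBP2, AGO1, AGO2, AGO3, AGO4 and TNRC6A, taken by gene symbol from the array design, and it held 14 of the 58201 probes and 10 of the 43317 gene names on the array. XPO5 had 3 probes, AGO1 and AGO3 had 2 each, and the other 7 genes had 1. Where a gene had more than 1 probe, the brightest one in the mock channel stood for the gene, and the others are given beside it.

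RNA was measured on 8 Agilent microarrays with both dyes, 1 array for each transfected sample. On every array Cy3 held RNA of mock cells, which received no transfection, and Cy5 held RNA of the same line transfected with Lipofectamine RNAiMAX. PC3 prostate cancer cells received 1 of 2 siRNAs against PIR (si-PIR-2 on one array and si-PIR-3 on the other), SK-MES-1 lung cancer cells either strand of miR-144, SW1990 pancreatic cancer cells and MDA-MB-231 breast cancer cells miR-204-5p, and PANC1 pancreatic cancer cells either strand of miR-130. The question put to the genes listed here was how far each moved when a line took up a small RNA. No array held cells transfected with a control RNA and no dyes were swapped, so the small RNA, the reagent and the dye cannot be told apart in a single ratio. Cell line and transfected RNA also changed together, except that miR-204-5p was given to 2 lines. Nothing in the labels says whether the arrays of a line came from separate cultures, so no p-value measures a known spread between replicate cultures. P-values over the 5 lines measure the spread between line means, in which the transfected RNA mostly differs too. The other p-values rest on the spread between the 2 siRNAs in PC3 and between the 2 lines given miR-204-5p. Part of these spreads may be technical.

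A microRNA is cut from its primary transcript in the nucleus by DROSHA with its partner DGCR8, carried to the cytoplasm by XPO5 (exportin 5) and trimmed to a short duplex by DICER1 with TARBP2. One strand is then held by an Argonaute protein, AGO1 to AGO4, of which AGO2 can itself cut a target, and TNRC6A, a GW182 protein, links Argonaute to the enzymes that shorten the tail of the target mRNA. Transfected siRNAs and miRNA mimics enter at the Argonaute step, and DICER1 mRNA is a known target of several endogenous miRNAs.

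The sequences of the transfected miRNAs are given because their seeds (bases 2 to 8, in capitals) set which mRNAs each can pair with, and no seed was shared between them. The mature sequences, 5′ to 3′, were read from RefSeq on GRCh38.p14.
hsa-miR-144-5p: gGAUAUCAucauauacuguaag
hsa-miR-144-3p: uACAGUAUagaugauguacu
hsa-miR-204-5p: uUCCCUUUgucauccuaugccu
hsa-miR-130a-5p: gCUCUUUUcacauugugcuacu
hsa-miR-130b-5p: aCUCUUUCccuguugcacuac
hsa-miR-130b-3p: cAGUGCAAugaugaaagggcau
The labels give miR-130-5p and miR-130-3p without the letter that separates miR-130a from miR-130b, so both 5p sequences are shown, and they differ in the last base of the seed. Of the 3p forms, miR-130b-3p is shown and miR-130a-3p is named only. In GRCh38.p14, miR-144-5p and miR-144-3p lie on the minus strand of chromosome 17 (chr17:28861583-28861604 and chr17:28861548-28861567), and miR-204-5p on the minus strand of chromosome 9 (chr9:70810031-70810052). The letters AAAGGGA, the DNA complement of the miR-204-5p seed, were found in 1 of the 14 probe sequences as given. This was the dimmest XPO5 probe, and 0.713% of all probes carried these letters. The complements of the other 5 seeds were in none of the 14, and each was in 0.256% to 0.99% of all probes. With so few probes carrying a complement, none in 14 says little. Only the probe sequences were searched, so sites elsewhere in these mRNAs were not tested.

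All 14 probes were well above background in both channels on all 8 arrays, by the scanner's own flag. Between 41.4% and 46.4% of the probes on the array reached that mark in Cy3 and between 49.8% and 54.6% in Cy5. PIR, the targeted gene, was low on both si-PIR arrays, reading -5.46 on the log2 scale with si-PIR-2 and -4.27 with si-PIR-3, against -1.59 to 0.05 on the other 6 arrays, the lowest of these being miR-130-5p. That miR-130-5p array was also the widest, with an SD of 0.64 over the 24109 tested probes and 38.5% of them beyond 0.5 in size, against SDs of 0.36 to 0.49 and 12.4% to 22.5% on the others. HOXB13, a prostate marker, had a mean mock intensity of 9674 in PC3 and at most 178 in the other lines, whereas KLK3 was not well above background in any line. Of 5 squamous markers, 3 were well above background on both SK-MES-1 arrays at low intensity (TP63 at 34.4, KRT14 at 42.8 and SOX2 at 47.6), and KRT5 and KRT6A were not. Of the 5 markers of leukocytes and endothelium, the summed mock intensity was 77.4 to 83.4 for 3 leukocyte genes and 53.5 to 75.2 for 2 endothelial genes.

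Most values of the pathway lay close to the mock level, as did those of most tested probes. Of the 80 values of the 10 genes on 8 arrays, 66 lay within 0.5 of 0 on the log2 scale. Beyond 0.5 in size were 12.4% (miR-144-3p) to 38.5% (miR-130-5p) of all tested probes on an array, so the set was not unusually quiet. Of the 80 values, 7 were beyond 1, all 7 of them in DICER1 and TNRC6A. Tested over the 5 lines with the arrays of a line averaged, 0 of the 10 genes passed an adjusted p of 0.05 in limma, the only tool run, and 3 (DICER1, TARBP2 and TNRC6A) were higher and 0 lower at an unadjusted p under 0.05, counting the brightest probe of each gene as in all such counts. Over all 24109 tested probes, 18 (0.0747%) passed upward and 25 (0.104%) downward after adjustment, a split that became 164 against 55 when the ratios were rebuilt by normexp and loess, and 12.1% and 7.87% had an unadjusted p under 0.05 in these directions. The median of the 10 genes was 0.16 and that of all tested probes 0.02. All 10 genes had a mean above 0, as did 54.6% of the tested probes.

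**Figure D1:**
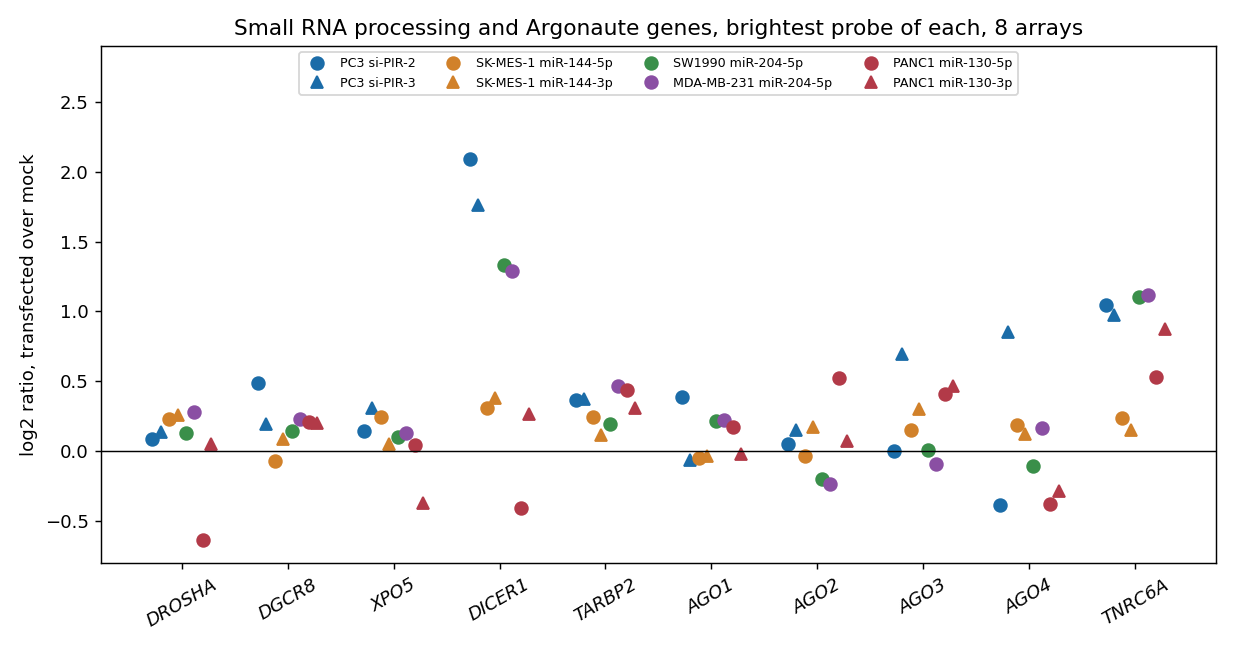
Log2 ratio of transfected over mock cells (y axis) for the brightest probe of each of the 10 genes (x axis). Each point is 1 array, with colour for the cell line. DICER1 reached 2.09 and 1.76 with si-PIR, and TNRC6A was above 0 on all 8 arrays, while most other points lay within 0.5 of 0.

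DROSHA, the nuclease of the nuclear complex, was nearly level on 7 arrays and low on one. Its log2 ratio was 0.09 with si-PIR-2, 0.14 with si-PIR-3, 0.23 with miR-144-5p, 0.26 with miR-144-3p, 0.13 with miR-204-5p in SW1990, 0.28 with miR-204-5p in MDA-MB-231, -0.64 with miR-130-5p and 0.05 with miR-130-3p. The miR-130-5p array was the only one of the 8 below 0, and 13.1% of the tested probes were as low or lower there. In a fit in which this lone array was assumed to vary like the pairs of si-PIR and miR-204-5p arrays, the difference from mock was -0.64 (SE 0.18, adjusted p = 0.11). None of the 24109 probes passed in that comparison, and 15.2% were higher and 13.3% lower at an unadjusted p under 0.05, as were 2 (AGO2 and TNRC6A) and 1 (DROSHA) of the 10 genes. With normexp and an offset of 50, or with loess and no background correction, DROSHA passed as lower on that array, together with 992 and 1408 of the 24109 probes, and 865 and 924 probes passed as higher. The mean over 5 lines was 0.09 (SE 0.11, adjusted p = 0.64). The probe lies at chr5:31401473-31401532 (hg19, minus strand).

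DGCR8, the double-stranded RNA binding partner of DROSHA, did not follow it. The ratio was 0.49 with si-PIR-2, 0.19 with si-PIR-3, -0.07 with miR-144-5p, 0.09 with miR-144-3p, 0.14 and 0.23 with miR-204-5p in SW1990 and MDA-MB-231, 0.21 with miR-130-5p and 0.20 with miR-130-3p. It was above 0 on 7 of 8 arrays, including the miR-130-5p array on which DROSHA was lowest. The mean over the lines was 0.18 (SE 0.08, adjusted p = 0.27).

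XPO5, the export receptor of precursor miRNAs, had small means over 5 lines on its 3 probes (0.09, 0.10 and 0.02), which differed in sign on some arrays. The brightest probe (chr6:43494424-43494483, hg19) ranged from -0.37 with miR-130-3p to 0.31 with si-PIR-3 and was above 0 on 7 arrays, with a mean over 5 lines of 0.09 (SE 0.09, adjusted p = 0.60). On the si-PIR-3 array the second probe (chr6:43490583-43490642) read -0.45 while the brightest read 0.31, a gap of 0.77. The third probe (chr6:43491398-43491457) was the dimmest, at 27.8 to 54.0 intensity units in the mock channel, and was above 0 on 4 of 8 arrays. The probe that carries the AAAGGGA letters is this dimmest one, and its ratios with miR-204-5p were 0.10 in SW1990 and -0.03 in MDA-MB-231. Whether miR-204-5p pairs with XPO5 mRNA was not tested.

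DICER1, the cytoplasmic nuclease that releases the mature duplex, had the highest ratios of the 10 genes. They were 2.09 with si-PIR-2 and 1.76 with si-PIR-3 in PC3, 0.31 with miR-144-5p and 0.38 with miR-144-3p (SK-MES-1), 1.33 and 1.29 with miR-204-5p in SW1990 and MDA-MB-231, -0.40 with miR-130-5p and 0.27 with miR-130-3p (PANC1). The si-PIR and miR-204-5p arrays were the 4 highest, as they were for TNRC6A, and only miR-130-5p gave a DICER1 value below 0. How many of the tested probes had the same 4 arrays highest was not counted. As high or higher than DICER1 were 0.0995% and 0.22% of the tested probes with si-PIR, and 0.85% and 0.742% with miR-204-5p.

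The DICER1 signals behind these ratios were strong in both channels. The processed signal of the mock cells was 740 and 644 on the PC3 arrays, 1587 and 1451 on the SK-MES-1 arrays, 1731 in SW1990, 1498 in MDA-MB-231, and 1249 and 1126 in PANC1. In the transfected cells it was 3157 and 2179, 1969 and 1892, 4357, 3656, 944 and 1355 in the same order. PC3 thus had the lowest mock signal, but its transfected signal was below those of SW1990 and MDA-MB-231.

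**Figure D2:**
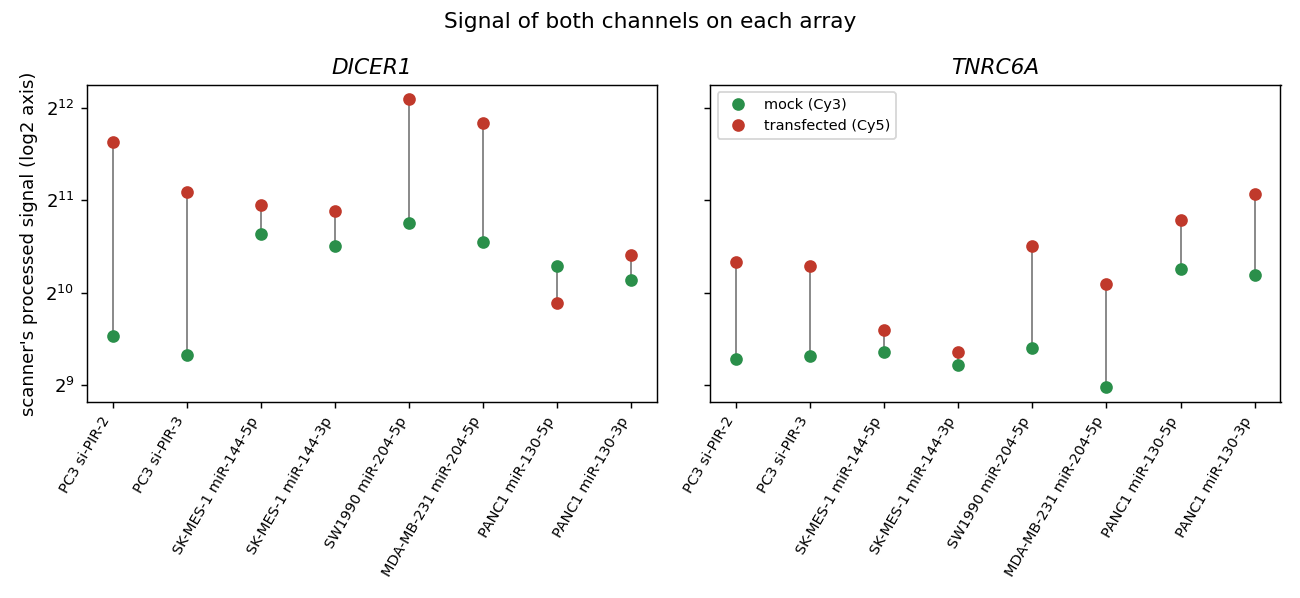
Background-subtracted and dye-normalised signal (y axis, log2 scale) of the DICER1 and TNRC6A probes on each array (x axis), with mock cells in green and transfected cells in red, joined by a line. The gap was wide for DICER1 on the si-PIR and miR-204-5p arrays and turned over on the miR-130-5p array, where the transfected signal was 944 and the mock signal 1249.

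DICER1 did not pass the adjusted threshold in any of the comparisons as planned. With si-PIR in PC3 the mean was 1.93 (SE 0.14, adjusted p = 0.14), a ratio of 3.80, with 2 of 2 arrays above 1, which 75 of the tested probes (0.311%) also reached. With miR-204-5p in SW1990 and MDA-MB-231 it was 1.31 (SE 0.14, adjusted p = 0.12), a ratio of 2.48, with 2 of 2 arrays above 1, as for 0.332% of the tested probes. No probe passed in either of these comparisons, while with si-PIR 8.74% were higher and 6.96% lower at an unadjusted p under 0.05, and with miR-204-5p 8.17% and 7.02%. At that level 3 of the 10 genes (DICER1, TARBP2 and TNRC6A) were higher with si-PIR and 2 (DICER1 and TNRC6A) with miR-204-5p, and 0 were lower. DICER1 passed after adjustment in 3 alternatives, normexp with an offset of 1, no background correction and an intensity trend, at adjusted p = 0.034 to 0.040 with si-PIR and 0.036 to 0.046 with miR-204-5p. In these settings 1 or 2 of all tested probes passed as higher with si-PIR, and 10 to 14 with miR-204-5p. Over the 5 lines the mean was 0.96 (SE 0.27, adjusted p = 0.13), with line means running from -0.07 in PANC1 to 1.93 in PC3. The si-PIR mean exceeded the mean of the 5 miRNAs by 1.55 (SE 0.17, adjusted p = 0.35), in a contrast in which no probe passed and 5.9% were higher and 5.97% lower at an unadjusted p under 0.05, with 2 of the 10 genes (DICER1 and TNRC6A) higher. The probe lies at chr14:95552615-95552674 (hg19, minus strand), and DICER1 had no second probe.

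TARBP2, the RNA binding partner of DICER1, was above 0 on all 8 arrays, with small values. They were 0.37 and 0.38 with the siRNAs, 0.24 and 0.11 with miR-144-5p and miR-144-3p, 0.20 and 0.47 with miR-204-5p, and 0.44 and 0.31 with miR-130-5p and miR-130-3p. The mean over the lines was 0.32 (SE 0.08, adjusted p = 0.12). Across all tested probes 4.63% were above 0 on all 8 arrays and 3.03% below 0, and of the 10 genes 2 (TARBP2 and TNRC6A) were above 0 on all and 0 below. With Cy5 on the transfected cells throughout, a sign common to all arrays cannot be told apart from a dye effect of the probe.

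The Argonaute genes had no shared direction. AGO2, the Argonaute with slicing activity, had the firmest technical footing, since its probe (on chromosome 8, minus strand) was printed at 10 spots of each array, of which 8 or 9 were kept. Its mean ratio was 0.05 and 0.15 with the siRNAs, -0.04 and 0.17 with miR-144-5p and miR-144-3p, -0.20 and -0.24 with miR-204-5p in SW1990 and MDA-MB-231, and 0.52 and 0.07 with miR-130-5p and miR-130-3p. The SD between spots of an array was 0.02 to 0.06. The spots of both miR-204-5p arrays were all below 0 and those of the miR-130-5p array all above 0.48, so that these arrays did not overlap spot by spot. Spots of an array share its RNA and labelling and are no replicates of the transfection. With miR-204-5p the mean was -0.22 (SE 0.12, adjusted p = 0.47), with miR-130-5p 0.52 (SE 0.18, adjusted p = 0.14), and over 5 lines 0.01 (SE 0.10, adjusted p = 0.98).

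**Figure D3:**
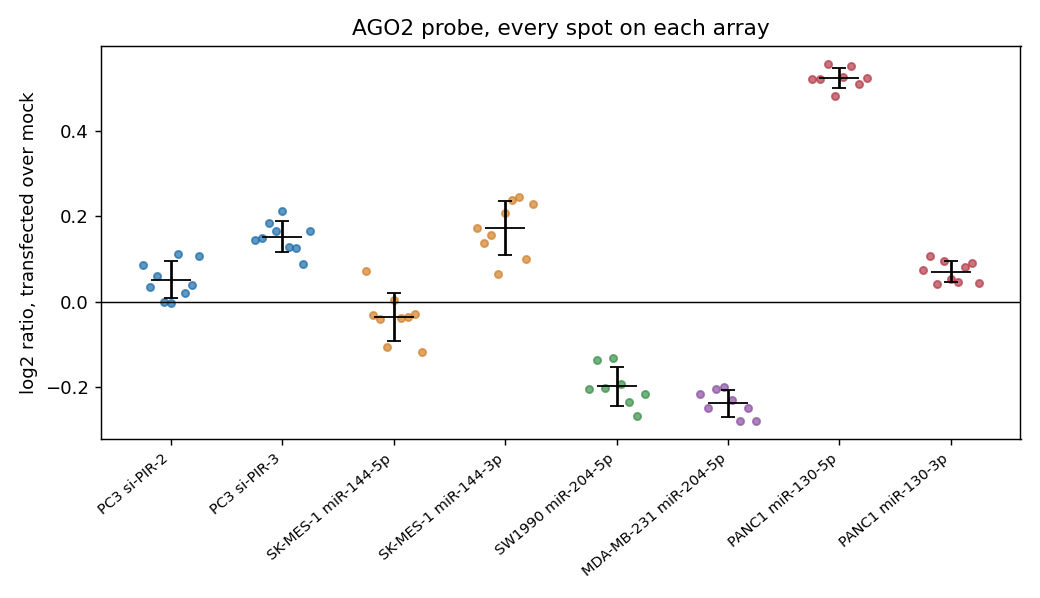
Log2 ratio (y axis) of every AGO2 spot kept on each array (x axis), with the mean and SD over the 8 or 9 spots of that array in black. The spots of 1 array lay close together, with SDs of 0.02 to 0.06, whereas array means ran from -0.24 to 0.52.

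AGO1, AGO3 and AGO4 lie near each other on chromosome 1 and were measured by 5 probes. The brightest AGO1 probe (chr1:36389840-36389899, hg19) stayed between -0.06 and 0.39, with a mean over the lines of 0.13 (SE 0.08, adjusted p = 0.42). The dimmer AGO1 probe (chr1:36386500-36386559) read 0.57 and 0.59 in PC3, -0.81 and -0.70 in SK-MES-1, 0.40 and 0.19 with miR-204-5p, and -0.17 and -0.20 in PANC1. Arrays of a line thus lay close together for this second probe, and on the SK-MES-1 arrays it was up to 0.76 below the brightest one. Its mock intensity was 51.3 to 83.9 against 402 to 787 for the brightest probe, and with normexp and an offset of 50 its SK-MES-1 values were -0.28 and -0.25. It also had an unadjusted p under 0.05 with si-PIR (0.58, SE 0.13, adjusted p = 0.22) and in si-PIR minus the miRNAs (0.90, SE 0.15, adjusted p = 0.35).

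AGO3 also depended on the probe. The brightest (chr1:36521552-36521611) read 0.00 with si-PIR-2 and 0.70 with si-PIR-3, and the other (chr1:36439052-36439111) -0.31 and -0.16 on the same arrays. The mean over the lines was 0.19 (SE 0.10, adjusted p = 0.35) for the first and 0.07 (SE 0.11, adjusted p = 0.74) for the second. The second probe had an unadjusted p under 0.05 with miR-130-5p (0.63, SE 0.18, adjusted p = 0.11) and in si-PIR minus the miRNAs (-0.47, SE 0.15, adjusted p = 0.38).

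AGO4 had a dim signal, at 47.0 to 77.7 intensity units in the mock channel. It read -0.38 with si-PIR-2 and 0.86 with si-PIR-3, and 4.22% of the tested probes differed as much between these arrays, which hold different siRNAs. Its values were only 0.06 apart in SK-MES-1 and 0.09 apart in PANC1. On the other arrays it was 0.19 and 0.12 in SK-MES-1, -0.11 in SW1990, 0.16 in MDA-MB-231, and -0.38 and -0.29 in PANC1. The si-PIR mean of 0.24 (SE 0.31, adjusted p = 0.74) therefore took its sign from the si-PIR-3 array, and it was -0.38 without that array.

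**Figure D4:**
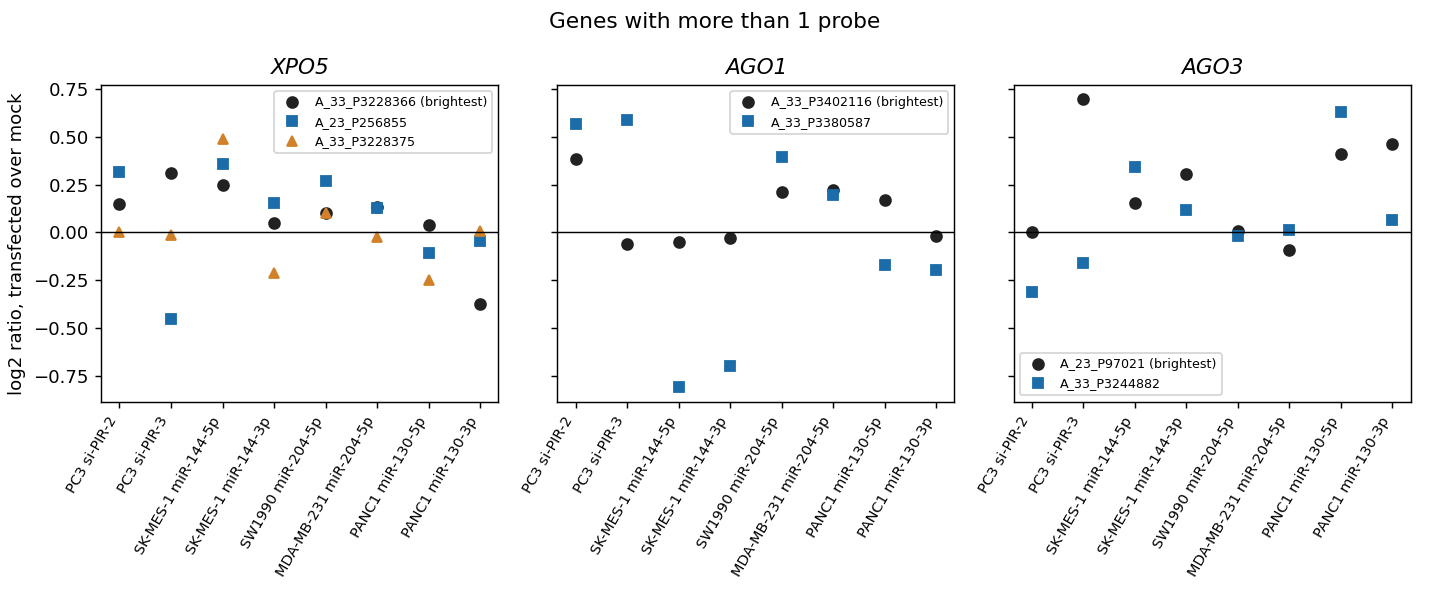
Log2 ratio (y axis) on each array (x axis) for every probe of XPO5, AGO1 and AGO3, the genes with more than 1 probe, with the brightest probe in black. Probes of a gene were up to 0.77 apart for XPO5, 0.76 for AGO1 and 0.86 for AGO3.

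TNRC6A, the GW182 scaffold that binds Argonaute, was the most even of the high values. The ratio was 1.04 with si-PIR-2, 0.98 with si-PIR-3, 0.24 with miR-144-5p, 0.15 with miR-144-3p, 1.1 and 1.12 with miR-204-5p in SW1990 and MDA-MB-231, 0.53 with miR-130-5p and 0.87 with miR-130-3p. Every array was above 0, and the SK-MES-1 arrays were the lowest. The processed mock signal was 504 to 1224 over the arrays, and the transfected signal 658 to 2138.

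Over the 5 lines the TNRC6A mean was 0.82 (SE 0.15, adjusted p = 0.075), a ratio of 1.77, higher in 5 of 5 lines. It passed the threshold when the 8 arrays were fitted with the line as a random block (0.77, adjusted p = 0.025) or when loess was run without background correction (0.75, adjusted p = 0.046), and not in the other alternatives. Of the 24109 tested probes, 258 and 186 passed as higher in these settings, and 116 and 88 as lower. With si-PIR TNRC6A was at 1.01 (SE 0.12, adjusted p = 0.18) and with miR-204-5p at 1.11 (SE 0.12, adjusted p = 0.12), where it passed in the same 3 alternatives as DICER1 (adjusted p = 0.036 to 0.046). With miR-130-3p, where 6.5% of the tested probes were higher and 6.45% lower at an unadjusted p under 0.05, it was 0.87 (SE 0.17, adjusted p = 0.24). The si-PIR mean was above that of the miRNAs by 0.43 (SE 0.14, adjusted p = 0.39). The probe lies at chr16:24835610-24835669 (hg19, plus strand), and the Pearson correlation with DICER1 over the 8 arrays, which share lines, was 0.70.

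In SK-MES-1, transfected with the 5p or the 3p strand of miR-144, the brightest probes of all 10 genes stayed within 0.4 of 0. Their range was -0.07 to 0.31 and -0.03 to 0.38, with DICER1 highest on both arrays. None of the brightest probes had an unadjusted p under 0.05. Of the other 4 probes, the second AGO1 probe did on both arrays (-0.81, SE 0.18, adjusted p = 0.38 with miR-144-5p, and -0.70, SE 0.18, adjusted p = 0.65 with miR-144-3p), and the third XPO5 probe did with miR-144-5p (0.49, SE 0.18, adjusted p = 0.49). Over all tested probes 5.33% were higher and 4.54% lower at that level with miR-144-5p, and 3.77% and 2.99% with miR-144-3p, and no probe passed after adjustment.

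Mock cells of the 5 lines differed in the levels of these genes. Levels are the log2 processed Cy3 signal of a probe minus the 75th percentile of its array, and can be compared between lines but not between genes. The widest gap between arrays of 1 line was taken as the error, since 3 lines had 2 arrays and 2 lines had 1, and no test was run. Arrays of a line may hold the same mock RNA, and this error may therefore be too small.

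DICER1 was highest in SW1990 (3.03), followed by MDA-MB-231 (2.83), SK-MES-1 (2.56), PANC1 (2.20) and PC3 (1.54), and each step exceeded the widest gap of 0.14. AGO2 had the widest span of the 10 genes, from 4.79 in PC3 to 1.98 in SK-MES-1, with MDA-MB-231 (3.50) and SW1990 (3.45) closer than the gap of 0.08. By its brightest probe, XPO5 was likewise lowest in SK-MES-1 (0.50) and highest in PANC1 (2.56), which did not differ from MDA-MB-231 (2.51) beyond its gap. The second XPO5 probe put MDA-MB-231 (2.59) above PANC1 (2.15), beyond its gap of 0.12. TARBP2 was also lowest in SK-MES-1 (1.45) and highest in PANC1 (3.01).

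The other genes spanned less. TNRC6A ran from 2.21 in PANC1 to 1.26 in MDA-MB-231, the latter within the gap of SK-MES-1 (1.28). DROSHA spanned 0.58, with SK-MES-1 (5.39) and PC3 (5.39) together at the top and SW1990 (4.85) and PANC1 (4.81) together at the bottom. DGCR8 spanned 0.70, AGO1 0.84, AGO3 0.93 and AGO4 0.82. The order depended on the probe for AGO1 and AGO3, as it did at the top for XPO5. For AGO3, SK-MES-1 was second by the brightest probe (2.44) and lowest by the other (1.45). SK-MES-1 was highest for the brightest AGO1 probe (4.07), and for the dimmer one it was at the bottom (-0.74) with MDA-MB-231 (-0.68).

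**Figure D5:**
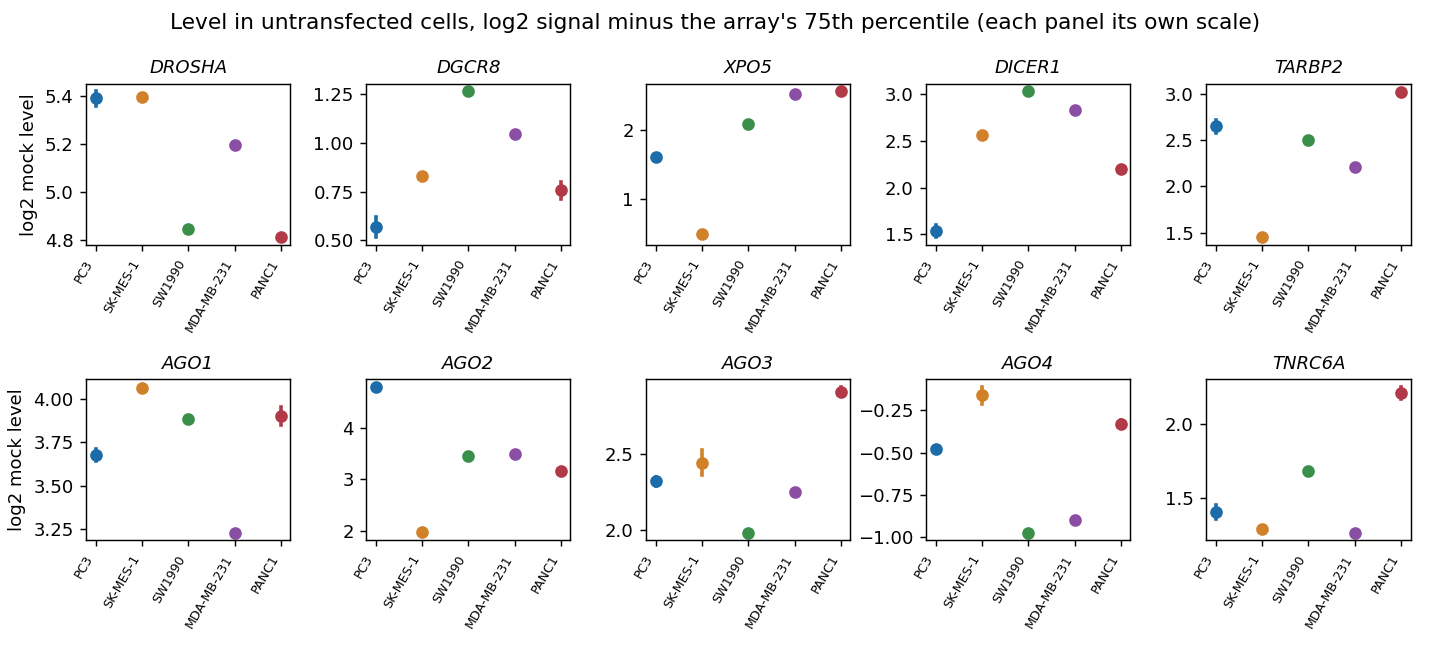
Level in mock cells (y axis, log2 processed Cy3 signal minus the 75th percentile of the array) of the brightest probe of each gene in the 5 lines (x axis). Points are line means and bars run from the lowest to the highest array where a line had 2. DICER1 was lowest in PC3 (1.54) and AGO2 highest there (4.79).

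The rest of the pathway was read from a list of 66 other genes, of which 59 had a tested probe. None passed over the 5 lines, with si-PIR or with miR-204-5p in limma, and 5 were higher and 7 lower over the lines at an unadjusted p under 0.05, beside the 12.1% and 7.87% of all tested probes. The median of the 59 was -0.02 over the lines, 0.01 with si-PIR and -0.05 with miR-204-5p. By group, 1 of 14 silencing effectors was higher and 1 lower at that unadjusted level, and 3 of 15 deadenylation and decay genes were higher and 2 lower.

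Among the 8 largest means of these genes, TNRC6C, a paralogue of TNRC6A, came nearest to the threshold. It was 0.37 with si-PIR-2, 0.55 with si-PIR-3, 0.65 with miR-144-5p, 0.63 with miR-144-3p, 0.52 and 0.60 with miR-204-5p, 0.72 with miR-130-5p and 0.53 with miR-130-3p, and its mean was 0.57 (SE 0.08, adjusted p = 0.053). TNRC6B, the third paralogue, had a mean of -0.33 (SE 0.19, adjusted p = 0.37), ranging from -1.04 with miR-204-5p in MDA-MB-231 to 0.58 with si-PIR-3. PRKRA, the other RNA binding partner of DICER1, was at -0.77 and -1.0 with miR-204-5p and at -1.34 with miR-130-5p, and its mean was -0.47 (SE 0.18, adjusted p = 0.21).

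The other 5 of these 8 genes also missed the threshold. CNOT7, a deadenylase of the CCR4-NOT complex, had a mean of 0.43 (adjusted p = 0.081), and DNAJA2, a co-chaperone, one of 0.53 (adjusted p = 0.086), each above 0 on 8 of 8 arrays. PTGES3, the p23 co-chaperone of HSP90, had a mean of -0.44 (adjusted p = 0.085) and XRN1, the 5′ to 3′ exonuclease, one of -0.33 (adjusted p = 0.18), each below 0 on 8 of 8. DCP2, the decapping enzyme, had a mean of 0.56 (adjusted p = 0.11) but read -0.88 with si-PIR-2 and 1.04 with si-PIR-3.

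The 5 genes whose ratios were most like those of DICER1 over the 8 arrays, among 6158 compared, were LPP (r = 0.97), ANKHD1-EIF4EBP3 (0.96), RTCA (0.96), ZNF524 (0.95) and DIP2C (0.95). Their ratios spanned less than those of DICER1, with a highest value of 0.80 (DIP2C with si-PIR-3) and a lowest of -0.83 (DIP2C with miR-130-5p). These are the top values of many correlations over 8 points that share cell lines, and no test was made.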

How the data were processed

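The authors deposited the output of Agilent Feature Extraction for each array, with Cy3 and Cy5 intensity on a linear scale, and a value table of the log10 ratio of Cy5 over Cy3, which held the same ratios as the scanner files (largest difference 0). All 8 arrays shared 1 slide and 1 scan. The ratios were background-subtracted and dye-normalised by the scanner software, and were turned here to log2. They were kept as the main values because an offset of 50 draws dim ratios toward 0. Control spots and outlier spots were left out, spots of a probe were averaged, and 24109 probes were tested, each flagged well above background on every array in 1 channel or both.

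Fits were made in limma 3.58.1 under R 4.3.3 (lmFit, eBayes, Benjamini-Hochberg over all tested probes, threshold 0.05). One tested the mean of 5 line averages against 0 (4 residual degrees of freedom), and the other used the transfected RNA as group (2 residual degrees of freedom). Alternatives were normexp with offsets of 50 and 1, no background correction, median centring, the value table, other filters, other probe rules, an intensity trend, a random block and leaving out lines or arrays. The fits were tested on simulated data. All 14 probe accessions matched the RefSeq table by symbol. Coordinates follow the array annotation (hg19), without assignment to exons. The number of arrays limits the precision.

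The genes and lists were chosen with earlier results of these data known. Genes named were all 10 of the set, pathway genes called in the 5-line or si-PIR comparison (none was), the 8 pathway genes with the largest mean over 5 lines, and the 5 most like DICER1 among genes with both channels well above background and a log2 range of at least 1.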

Additional observations from a re-analysis of the deposited data

Results flagged for a closer look

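AGO4 ran in opposite directions in SK-MES-1 and PANC1. Both miR-144 arrays of SK-MES-1 were above 0 (0.19 and 0.12) and both miR-130 arrays of PANC1 were below 0 (-0.38 and -0.29), and the line means differed by 0.49. Such values were common. In SK-MES-1 30.8% and 33.3% of the tested probes were as high or higher, and in PANC1 23.1% and 20.9% as low or lower. The share of tested probes with the same pattern over both lines was not counted. The difference was not tested, the cell line and the transfected RNA cannot be told apart in it, and the values were smaller than the gap of 1.24 between the si-PIR arrays for the same probe. No line mean of the 10 genes stood apart from the other 4 by Dixon's criterion.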

How the results depend on the processing

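As planned, 0 of the 10 genes passed in any comparison. Over the 5 lines, 1 gene (TNRC6A) passed with loess and no background correction and 1 (TNRC6A) with the line as a random block. In these settings 186 and 258 of the 24109 tested probes passed as higher, and 88 and 116 as lower. With si-PIR, 1 gene (DICER1) passed with normexp (offset 1), 1 without background correction and 1 with an intensity trend, and in the same 3 settings 2 genes (DICER1 and TNRC6A) passed with miR-204-5p. With miR-130-5p, 1 gene (DROSHA, lower) passed with normexp and an offset of 50, 1 (DROSHA) with no background correction and 1 (TNRC6A) with no filter on dim probes. With no such filter, 1 gene (TNRC6A) also passed with miR-130-3p and 1 (TNRC6A) in si-PIR minus the miRNAs. The cause was not tested. The si-PIR and miR-204-5p arrays were left out singly, and the miR-144 and miR-130 arrays were not. Leaving out each line or each si-PIR array in turn left 0 of the 10 genes passing in the 5-line comparison. Without a line, however, 0 of all 24109 tested probes passed as higher and 3 to 8 as lower. The 0 of 10 therefore says little about these genes. In these leave-out fits DICER1 ranged from 0.72 (without PC3) to 1.22 (without PANC1) and TNRC6A from 0.75 to 0.98. The si-PIR mean of AGO3 was 0.00 without si-PIR-3 and 0.70 without si-PIR-2, that of AGO1 was 0.39 and -0.06, and that of AGO4 was -0.38 and 0.86. Over all settings DICER1, TNRC6A, TARBP2, DROSHA, DGCR8 and XPO5 kept a value above 0 in the 5-line, si-PIR and miR-204-5p comparisons. For XPO5 this rests on its brightest probe or on its probes averaged. With si-PIR as planned, the brightest XPO5 probe was at 0.23, the second at -0.07 and the third at -0.007. The settings overlap, and the share of all tested probes that kept their sign over them was not counted. Over all probes, calls in the 5-line test went from 43 to between 0 (no filter) and 374 (random block), in si-PIR from 0 to 10 at most, in miR-204-5p from 0 to 90, in miR-144-5p from 0 to 1682, in miR-144-3p from 0 to 1651, in miR-130-5p from 0 to 2332, in miR-130-3p from 0 to 1186 and in si-PIR minus the miRNAs from 0 to 2474. Without the filter, 986 of 58191 probes were higher and 1041 lower with miR-130-5p. In that setting 453 were higher and 733 lower with miR-130-3p, and 1740 and 734 in si-PIR minus the miRNAs. All arrays lay on 1 slide, so a slide block could not be fitted. No paired analysis was possible because the numbers in the labels name siRNAs of 1 group and are not shared between groups. Dim probes limit what can be read of AGO4, the second AGO1 probe and the third XPO5 probe.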
